A study of Mus musculus with 9 samples.

Results

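The small intestine of mice that had received total body irradiation (TBI) and nothing else was described on its own, as a profile of transcript abundance. BALB/c mice, an inbred strain labelled wild type, were exposed to 9 Gy, and RNA was taken from small sections of the small intestine 12 h later. These are 3 of the 9 libraries of the series, chosen by their labels, and all 19360 genes of the deposited table were used for each of them. The other 6 libraries came from mice that were also irradiated at 9 Gy and sampled at 12 h but had first received 3pRNA, a ligand of the RNA sensor RIG-I, 24 h before irradiation, in 3 of them after an antibody that blocks the interferon receptor subunit IFNAR1, given 48 h before irradiation. They were not compared here. No unirradiated intestine belongs to the design, so a level below is that of irradiated tissue, and what irradiation did to it cannot be told apart from what the tissue expressed before. Which segment of the small intestine was sampled is not stated in the labels, and the 3 libraries were labelled as separate samples without a note on cages, sex or age.

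The lining of the small intestine is renewed within days from stem cells at the base of the crypts. Absorptive enterocytes carry digestive enzymes and transporters on a brush border, goblet cells secrete mucus, Paneth cells secrete antimicrobial peptides and enteroendocrine cells secrete hormones. Ionising radiation breaks DNA, the transcription factor p53 then induces genes of cell cycle arrest and cell death, and dividing crypt cells are the most sensitive, while differentiated villus cells are shed only later. In a homogenate of whole tissue, fewer cells of a type and less RNA per cell cannot be told apart.

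Values are scaled counts, that is reads per gene divided by the size factor of the library, after the 1 that the authors had added to each value was subtracted. A share is the percentage of all scaled counts of a library. Wherever 3 values follow a gene, they belong to TBI libraries 1, 2 and 3 in that order. Ranks are those of the mean share over the 3 libraries unless a scale per kb is named. Because a long transcript yields more reads, an order of different genes by scaled counts or shares is one of read numbers, and levels are set against each other only as shares per kb of exon length. The smallest step in each library gave the worth of 1 read, and all values were then whole numbers of reads within 0.02 read. The libraries held 16322856, 7571441 and 10022366 reads in genes, and at least 1 read fell in 18270, 17625 and 17977 genes. A gene with 0 reads could still lie at up to 3 reads, which corresponds to 2.18, 5.09 and 3.48 scaled counts. Scaled counts summed to 11877637, 12856669 and 11626878.

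A small part of the genes held most of the signal. The 10 most abundant genes took 9.83, 11.4 and 10.3% of scaled counts (10.5 ± 0.78%, SD, n = 3), and the 100 most abundant took 28.4, 30.9 and 28.8%. Counted from the most abundant gene downward, 564, 480 and 560 genes held 50% of the scaled counts, and 4817, 4606 and 4881 genes held 90%. Library 2 was the most concentrated of them. At the other end, 375 genes had no read in any of the 3 libraries, and 16712 had at least 1 read in each. A mean of at least 1000 scaled counts was reached by 2359 genes, of at least 100 by 9140 and of at least 10 by 13933. Protein-coding genes took 96.2 ± 0.69% of scaled counts, those of the mitochondrial genome among them. The 12 genes with mitochondrial symbols, protein-coding or ribosomal, took 3.06 ± 0.23%. Outside the protein-coding class, lincRNA genes took 1.65 ± 0.78%, most of it from the single row Yam1, processed pseudogenes 0.862 ± 0.053% and immunoglobulin genes 0.191 ± 0.054%.

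**Figure D1:**
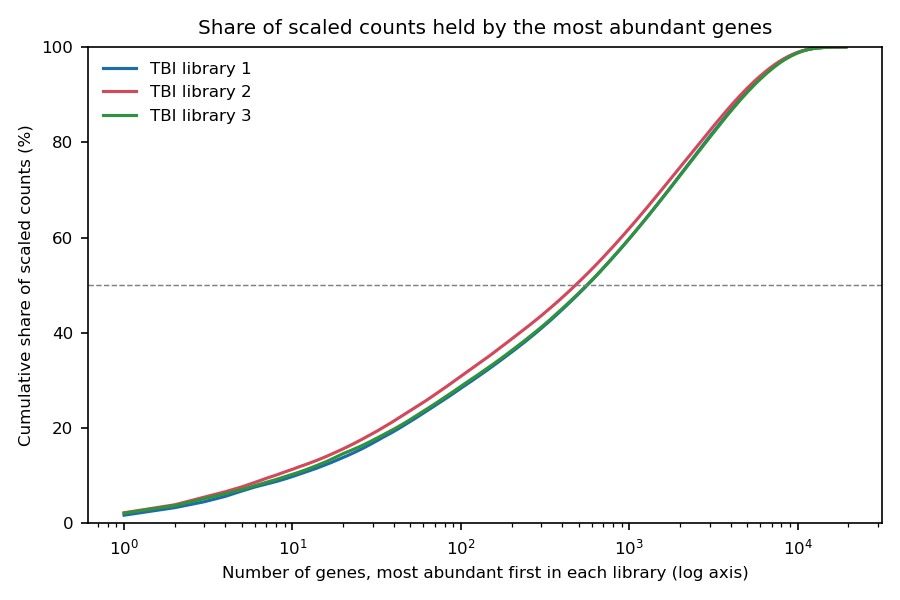
Cumulative share of scaled counts (vertical axis, %) against the number of genes, ordered from the most abundant within each library (horizontal axis, log scale), with 1 line per TBI library. The dashed line marks 50%, which library 2 crosses at 480 genes and libraries 1 and 3 at 564 and 560 genes.

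Secreted defence proteins and brush border peptidases headed the profile. Reg3b, a secreted C-type lectin that acts on bacteria, had the largest mean share with 1.72, 1.60 and 2.15% of scaled counts. Its relative Reg3g, a lectin that kills Gram-positive bacteria, ranked 4 with 1.13, 1.0 and 1.45%. By share, both were highest in library 3 and lowest in library 2. In scaled counts Reg3b was lowest in library 1, with 204475, 205783 and 249556. Second came Anpep, aminopeptidase N of the brush border, with 1.58, 1.68 and 1.60%, and its 3 values lay close together. For Reg3b the 95% Wilson interval of the share was 1.59 to 1.61% in library 2 and 2.14 to 2.16% in library 3, so counting error, the only error such an interval covers, was far smaller than the distance between libraries. Per kb the distance between the leading genes was wider, with 4.81 ± 0.73% for Reg3b, 1.70 ± 0.32% for Reg3g and 1.18 ± 0.037% for Anpep (means ± SD of shares per kb, n = 3).

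Reg3b and Reg3g were among the leading genes, and their shares, though not their scaled counts, kept the same order over the libraries. Their promoters are shown, from 250 bases before to 50 after the annotated start (RefSeq, GRCm38.p6). Beside them stand those of Anpep, the second gene of the profile, and Fabp6, which led the ileal genes per kb. Capitals mark TATAAA on either strand, the only motif marked. The positions are chr6:78370635-78370934 on the plus strand for Reg3b, chr6:78468825-78469124 on the minus strand for Reg3g, chr7:79848161-79848460 on the minus strand for Anpep and chr11:43601513-43601812 on the minus strand for Fabp6.
Reg3b: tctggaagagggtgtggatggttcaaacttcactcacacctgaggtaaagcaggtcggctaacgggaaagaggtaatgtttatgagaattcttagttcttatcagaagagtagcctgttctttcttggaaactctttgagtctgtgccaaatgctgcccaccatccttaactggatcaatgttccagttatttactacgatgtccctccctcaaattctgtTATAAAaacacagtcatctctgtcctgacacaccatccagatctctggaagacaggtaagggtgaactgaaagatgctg
Reg3g: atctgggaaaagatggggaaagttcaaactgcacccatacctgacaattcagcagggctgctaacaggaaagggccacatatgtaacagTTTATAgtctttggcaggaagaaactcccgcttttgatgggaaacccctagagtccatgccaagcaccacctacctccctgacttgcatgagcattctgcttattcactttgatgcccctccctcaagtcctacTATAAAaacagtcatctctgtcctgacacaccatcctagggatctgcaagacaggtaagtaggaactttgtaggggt
Anpep: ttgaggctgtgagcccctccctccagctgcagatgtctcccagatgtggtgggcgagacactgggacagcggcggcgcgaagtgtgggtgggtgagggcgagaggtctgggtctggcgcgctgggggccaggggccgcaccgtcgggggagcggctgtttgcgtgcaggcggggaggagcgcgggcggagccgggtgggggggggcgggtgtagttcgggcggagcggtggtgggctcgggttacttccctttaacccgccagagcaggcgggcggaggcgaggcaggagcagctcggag
Fabp6: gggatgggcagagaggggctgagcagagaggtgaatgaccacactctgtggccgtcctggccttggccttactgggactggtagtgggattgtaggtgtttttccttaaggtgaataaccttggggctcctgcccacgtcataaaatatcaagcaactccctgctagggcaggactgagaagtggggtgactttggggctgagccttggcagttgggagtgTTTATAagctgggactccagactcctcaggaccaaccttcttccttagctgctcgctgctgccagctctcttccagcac
In a global alignment, the promoters of Reg3b and Reg3g shared 214 of 310 columns, an identity of 69.0%. Their last match to the TATA motif began 29 bases before the start in Reg3b and 27 bases before it in Reg3g, and the match in Fabp6 29 bases before it, there as the reverse complement. Anpep held none, and 72.3% of its bases were G or C, against 43.7% in Reg3b and 47.3% in Reg3g. Of the 100 most abundant genes, 66 matched a promoter in the reference by symbol. The letters TATAAA stood on either strand in 17 of these 66 (25.8%), against 14.2% of all 27025 promoters of the same length. AGATAA, letters bound by GATA factors, stood in 12.1% of the 66 and 11.4% of all, and TTTATNG, letters bound by CDX factors, in 18.2% and 11.3%. These letters were searched on both strands, with overlaps between motifs allowed, and a match describes the window only.

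**Figure D2:**
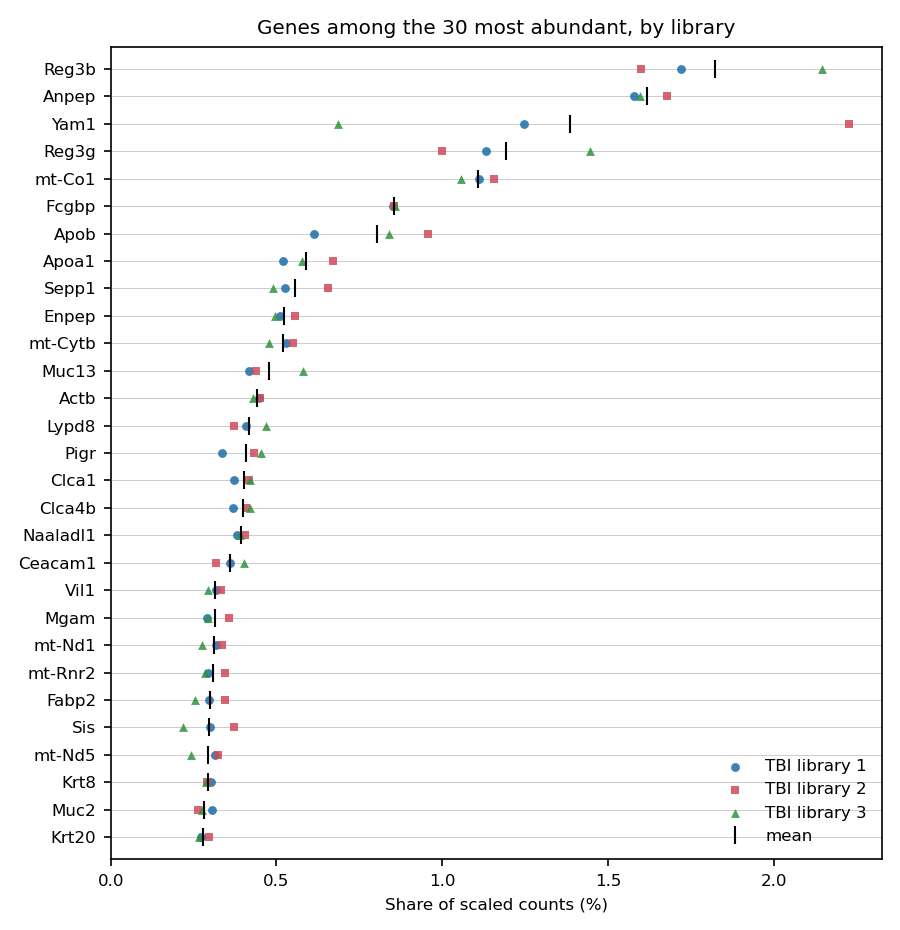
Share of scaled counts (horizontal axis, %) of the 30 genes with the largest mean share, 1 of them not shown, from the highest at the top, with 1 symbol per TBI library and a vertical tick for the mean. Most genes have 3 close symbols, whereas Yam1 spans 0.686 to 2.23%.

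One row among the leading genes stood apart in its nature and its spread. Yam1 took 1.25, 2.23 and 0.686%, so that it was the most abundant gene of library 2 and ranked 3 and 7 in libraries 1 and 3. Its identifier belongs in the reference annotation to the lincRNA Gm42418, at chr17:39846958-39848788 of GRCm38 on the plus strand. The rRNA gene CT010467.1 (chr17:39846353-39848827) is annotated over the same stretch on the minus strand, and 94.9% of the stretches of 50 bases (50-mers) in the Yam1 transcript also stood in it. Whether ribosomal RNA gave part of these reads was not tested, and without a stated strand setting reads of 2 opposite genes cannot be told apart. Lars2, the mitochondrial leucyl-tRNA synthetase, had the same order of libraries with 9036, 13075 and 4911 scaled counts, and 0.196% of its 50-mers stood in transcripts of other genes. That search covers exact matches to annotated transcripts only, so where the Lars2 reads came from was not tested either. Without Yam1, an alternative chosen after the data were seen, the 10 most abundant genes held 9.72% of scaled counts in place of 10.5%.

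Other genes of the leading 30 belonged to transport and to the surface of the epithelium. Sepp1, the secreted selenium carrier selenoprotein P, had 0.526, 0.656 and 0.490% of scaled counts. Lypd8, a surface protein that keeps flagellated bacteria at a distance in the mouse colon, had 0.407, 0.373 and 0.468%, and the adhesion molecule Ceacam1 0.360, 0.318 and 0.401%. Clca4b had 0.369, 0.408 and 0.420%, with 24.8% of its 50-mers shared with relatives, mainly Clca4a. In none of these 4 genes did a library hold over 2 times the share of another. In scaled counts, 1.71% of all 9140 genes with a mean of at least 100 were over 2-fold apart, so a count of 0 is near that of the whole profile. Actb, cytoplasmic actin, had 0.446, 0.451 and 0.429% of scaled counts and Krt8, a keratin of simple epithelia, 0.302, 0.289 and 0.289%.

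The 17 measured brush border hydrolases together took 4.12, 4.63 and 4.07% of scaled counts, which was the largest share of any list by reads. Per kb that order did not hold, with 3.13% for the hydrolases against 6.56% for the REG lectins and 5.98% for mitochondrial mRNAs. After Anpep came Enpep, glutamyl aminopeptidase, with 60789, 71630.5 and 57724 scaled counts, Naaladl1, a peptidase, with 45201, 52161 and 45370.1, and Mgam, maltase-glucoamylase, with 34449, 45776 and 34228. Sis, sucrase-isomaltase, had 35515, 47609.9 and 25466 scaled counts and was the least even of these. The meprin subunits Mep1b and Mep1a ranked 46 and 49. Lct, the lactase gene, was nearly silent, with 0, 11.9 and 1.16 scaled counts, and so was the alkaline phosphatase gene Akp3, with 2.18, 1.70 and 3.48, while its relative Alpi had 5561, 7027 and 4203. All 15 members with a mean of at least 100 were highest in library 2, with the size factors and under equal library totals alike. Over all 9140 genes with such a mean, library 2 was highest in 45.1%, and in 20% under equal totals.

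Genes of fat uptake and lipoprotein assembly took 2.18, 2.74 and 2.32% of scaled counts. Apob, the structural protein of chylomicrons, had 0.614, 0.957 and 0.839% of scaled counts, and Apoa1, the main protein of high-density lipoprotein, 0.520, 0.670 and 0.576%. Per kb the order was reversed, with 1.44 ± 0.18% for Apoa1 and 0.174 ± 0.037% for Apob. The fatty acid binding protein Fabp2 had 35333, 44329 and 29633 scaled counts and a share per kb of 0.935 ± 0.14%, whereas its liver-type relative Fabp1 had 7.28, 8.49 and 5.80 scaled counts. Npc1l1, which takes up cholesterol, had 14319, 17556 and 14476, Mttp, which loads lipid onto Apob, 14168, 14827 and 11279.6, and Apoa4 14296, 15780.0 and 8879 scaled counts. Of the 23 genes in the group, 20 had a mean of at least 100 scaled counts. None of these 20 differed over 2-fold between the highest and the lowest library, where 1.71% of all 9140 genes with such a mean did, so that a count of 0 is near what the whole profile gave.

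For sugar, Slc5a1, the sodium-coupled glucose carrier, had 21691, 31577 and 22978 scaled counts. The fructose carrier Slc2a5 had 274, 754 and 321 and the basolateral carrier Slc2a2 4.37, 124 and 27.8. Of the 9 sugar genes with a mean of at least 100, 8 were highest in library 2 with the size factors and under equal totals alike. Over all genes with such a mean it was 45.1 and 20%. Against 1.71% of all genes, 4 of the 9 were over 2-fold apart, all highest in library 2. These were Slc2a5, Pck1, G6pc and Fbp1, the last a phosphatase of gluconeogenesis with 139.7, 290.4 and 159. For amino acids and peptides, the 11 measured carriers took 0.384, 0.452 and 0.381% of scaled counts. Ferritin heavy chain, Fth1, had 13198, 14133 and 15462 scaled counts and hephaestin, Heph, which oxidises exported iron, 6813, 8217 and 6768.

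Genes that mark the position along the intestine were read next. In the mouse, the bile acid binding protein Fabp6, the bile acid carrier Slc10a2 and cubilin, the receptor for vitamin B12 with intrinsic factor, are genes of the distal small intestine, the ileum. Fabp6 had 27317, 24063 and 21103 scaled counts, and its share per kb of 1.26 ± 0.18% placed it at rank 7 on that scale. Cubn ranked 41 with 22969, 35596 and 22354 scaled counts and Slc10a2 ranked 125 with 9551, 11659 and 9338. The bile acid exporter subunits Slc51a and Slc51b had 6175, 8003 and 6778 and 1508, 1752 and 1747 scaled counts. Fgf15, an ileal hormone gene induced by bile acids, had 77.9, 28.9 and 48.7. Of the 9 proximal genes, 3 had a mean of at least 100 scaled counts, 5 one between 10 and 100 and 1 a mean under 10. The first set held the iron exporter Slc40a1, ferroportin, with 883, 709.8 and 955, the hormone gene Sct, which encodes secretin, with 289, 379 and 358, and the folate carrier Slc46a1 with 138, 146 and 147. Gata4, a transcription factor of duodenum and jejunum, had 8.0, 11.9 and 10.4 scaled counts, and Pdx1, a factor of the duodenum, 3.64, 0 and 0. The duodenal iron reductase Cybrd1 had 47.3, 39.1 and 59.2, and the incretin gene Gip, made in the upper intestine, 29.1, 28.9 and 16.2. The 9 ileal genes took 0.596, 0.664 and 0.559% of scaled counts, against 0.0121, 0.0106 and 0.0136% for the 9 proximal genes.

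The tissue label was checked against other organs. Car1, a carbonic anhydrase of the large intestine, had 9.46, 3.40 and 2.32 scaled counts, and Car4, which the small intestine also expresses, 3789, 2661 and 3469.8. Of the 4 large intestine genes with a row, 2 had a mean of at least 100. Of the 5 pancreatic acinar genes with a row, Clps, which encodes colipase, had 132, 148 and 168 scaled counts, Cela1, an elastase, 22.6, 22.1 and 30.2, and Ctrb1, a protease, no read in any library. Atp4a, the proton pump of the stomach, had 0.728, 10.2 and 1.16, and the liver gene Serpina3k no read. Of the listed defining markers, Cpa1 and Pnlip of pancreas, Gkn1 of stomach and Alb and Ahsg of liver were not analysed here because the table used holds no row for them. General epithelial genes were high throughout, with 37692, 42609 and 34146 for Vil1, the actin bundler villin, 31341, 35467 and 32357 for Epcam, 26929, 27405 and 24017 for Cdh17, an intestinal cadherin, and 32359, 38169 and 30888 for Krt20, a keratin of differentiated cells. Hnf4a, a transcription factor of enterocytes, had 18565, 18033 and 17514 and Cdx2, a determinant of intestinal identity, 2371, 2036 and 2284 scaled counts. The 20 genes of epithelial junctions and cytoskeleton varied little, with 2.43, 2.50 and 2.48% of scaled counts. Itgb6, an epithelial integrin subunit, had 900.1, 1304 and 1093 scaled counts.

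**Figure D3:**
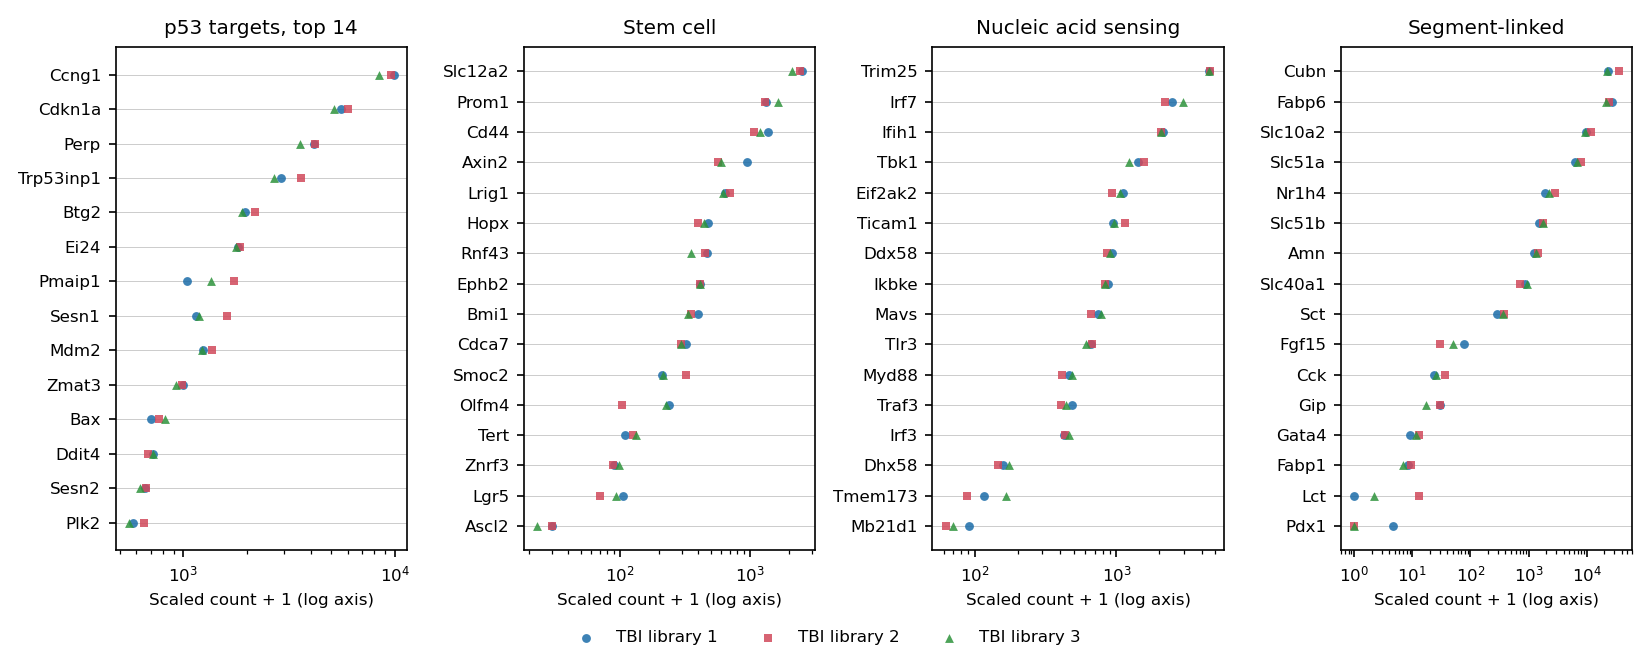
Scaled count + 1 (horizontal axes, log scale) by TBI library for the leading p53 targets, stem cell genes (the 14 most abundant plus Lgr5 and Ascl2), nucleic acid sensing genes, and genes linked to the position along the small intestine. In the right panel Fabp6 lies at 21103 to 27317 and Gata4 at 8.0 to 11.9 scaled counts.

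Goblet cell genes took 1.92, 1.95 and 1.96% of scaled counts, a spread of 0.020 percentage points (SD, n = 3). Fcgbp, a mucus protein that binds the Fc part of IgG, had 101151, 109882 and 99789 scaled counts, Clca1, a metalloprotease of mucus, 44269, 53549.6 and 48930.4, and Muc2, the gel-forming mucin, 36379.8, 33799.6 and 31973. Tff3, a trefoil peptide, had 10822, 11963 and 10383 and the lectin Zg16 25948, 31191 and 26712. Retnlb, a goblet cell protein of the large intestine and of infected gut, had 42.9, 25.5 and 33.6. Of the cell-surface mucins, Muc13 had 49396, 56486 and 67609 scaled counts and was highest in library 3. Pigr, which carries IgA across the epithelium, had 39850.1, 55589 and 52653, and was lowest in library 1.

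Paneth cell products followed at 0.512, 0.418 and 0.467% of scaled counts. Lyz1, the Paneth cell lysozyme, had 25647, 22978 and 22744 scaled counts, and Pla2g2a, a secreted phospholipase that attacks bacterial membranes, 19648, 16235 and 18396. Mmp7, the protease that activates alpha-defensins, had 3201, 2817 and 3241, and the angiogenin Ang4 1109, 1048 and 981. Library 1 held the highest value in 7 of the 9 genes, where it was highest in 32.5% of all genes with a mean of at least 100. Under equal totals this was 6 of 9, against 41.5%. Among alpha-defensins, small antimicrobial peptides encoded by near-identical gene copies, Defa24 had 18153, 21002 and 19259 scaled counts and ranked 9 per kb. Of the 15 genes that the reference names alpha-defensins, 7 had a mean of at least 100 and 6 had one under 10. Defa17 had 572, 667 and 1039, Defa23 and Defa3 at most 1.70 scaled counts in any library, and 92.0% of the 50-mers of Defa17 also stood in transcripts of other genes. For Defa24 that share was 28.1%. How the reads divide among these copies is therefore uncertain, and the sum over the 15 genes, 0.218, 0.231 and 0.239% of scaled counts, is the safer figure.

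Rarer epithelial lineages were present at low level. The enteroendocrine group took 0.0282, 0.0294 and 0.0310% of scaled counts. Nts, which encodes neurotensin, had 769, 1026 and 872 and Gcg, which encodes proglucagon, 704, 655 and 697 scaled counts, both hormones of the distal gut. Peptide YY, Pyy, had 291, 346 and 359.6, and the pan-endocrine granin Chgb 506, 453 and 463. Neurog3, the transcription factor of endocrine precursors, had 0.728, 1.70 and 2.32. In the tuft cell group only Ptgs1 reached a mean of 100, with 136, 151 and 118 scaled counts. The tuft cell kinase Dclk1 had 50.9, 54.3 and 116 and the cation channel Trpm5 10.9, 22.1 and 30.2, both highest in library 3.

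The crypt base and the dividing compartment were measured in all libraries. Lgr5, the receptor that marks crypt base stem cells, had 105, 69.6 and 91.6 scaled counts, from 144, 41 and 79 reads. The Wilson intervals of its share were 0.000749 to 0.00104%, 0.000399 to 0.000735% and 0.000633 to 0.000982%. Those of libraries 1 and 2 did not overlap. The other pairs overlapped, which does not show that their shares agree within counting error. Olfm4, a secreted stem cell marker, had 237, 102 and 224, and Ascl2, a transcription factor of the same cells, 29.1, 28.9 and 22.0. Axin2, a target of Wnt signalling, had 951, 571 and 593, and Lrig1, a stem cell regulator, 647, 698 and 624. Other members such as Slc12a2 (2515, 2427 and 2113) and Cd44 (1382, 1083 and 1187) are also expressed outside stem cells. Of the 18 genes on the list, 13 had a mean of at least 100, and 1 of these, Olfm4, differed over 2-fold, where 1.71% of all genes did.

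Genes of the cell cycle took 0.0977, 0.0721 and 0.0931% of scaled counts. Top2a, topoisomerase of dividing cells, had 1701, 1319 and 1624 and Mki67, the Ki-67 antigen, 1742, 1187 and 1519.7. Ccnd1, cyclin D1 of early cycle entry, had 1760.2, 1129 and 1333 and Ccnb1, the mitotic cyclin, 214, 156 and 187. Of the 23 members with a mean of at least 100, 19 were lowest in library 2 (21 under equal library totals). Over all 9140 such genes library 2 was lowest in 29.4%, and in 57% under equal totals.

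Targets of p53 were expressed in all 3 mice. As a group they took 0.316, 0.311 and 0.301% of scaled counts, and 28 of the 29 genes had a mean of at least 100. None of these 28 differed over 2-fold, a count near that of the whole profile, in which 1.71% did. Ccng1, cyclin G1, had 9853, 9633 and 8430.4 scaled counts at rank 143. Cdkn1a, the p21 inhibitor of the cell cycle, had 5556, 5981 and 5145, and Mdm2, the ligase that limits p53 itself, 1241, 1362 and 1225. Among death genes, Bax, a pore-forming protein of mitochondria, had 707, 766 and 814, Bbc3, which encodes PUMA, 188, 190.2 and 212, and Pmaip1, which encodes NOXA, 1043, 1735 and 1348. Pmaip1 had the widest range of those 3, with library 2 highest. Trp53 itself had 362, 331 and 369 scaled counts. Whether any of these levels was raised by irradiation cannot be told without unirradiated tissue.

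Of the wider death machinery, the anti-apoptotic Mcl1 had 5108, 6127 and 4969.8 scaled counts. Gsdmd, which forms the pores of pyroptosis, had 3224, 3325 and 3284, and Nlrp6, an epithelial inflammasome sensor, 3357, 2698 and 2813. Nlrp3, an inflammasome sensor of myeloid cells, had only 6.55, 1.70 and 8.12. Of the necroptosis genes, the kinase Ripk3 had 739, 599 and 629 and its substrate Mlkl 227, 192 and 212. Among DNA repair and checkpoint genes Parp1, which marks strand breaks with poly(ADP-ribose), had 441, 392 and 419. The kinases Atm and Atr, which start the damage response, had 196, 194 and 188 and 244, 214 and 181 scaled counts.

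The sensors that the study addresses were all detected. Ddx58, which encodes RIG-I, had 934, 861 and 894 scaled counts, and Mavs, the adaptor that RIG-I signals through, 741, 664 and 781. Per kb Mavs had a share of 0.00545 ± 0.00071% and Ddx58 of 0.00318 ± 0.00028%, so the order of those 2 genes was reversed on that scale. Ifih1, which encodes the related sensor MDA5, had 2132, 2048 and 2074. The genes of the DNA arm lay below Ddx58 and Mavs per kb. Tmem173, which encodes STING, had 116, 86.6 and 166, a share per kb of 0.00113 ± 0.00041%, and Mb21d1, which encodes the DNA sensor cGAS, had 89.5, 61.1 and 68.4, a share per kb of 0.000443 ± 0.00010%. Trim25, a ligase linked to RIG-I, had 4479, 4608 and 4517 scaled counts.

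Of the 10 listed interferon ligands only Ifng, the gene of interferon gamma, had a row, at 2.18, 0 and 0 scaled counts. The other ligands, among them Ifnb1, which the study addresses, were not analysed here because the table used holds no row for them. The receptor subunit Ifnar1 had 701, 683 and 649.7 and Ifnar2 114, 110.4 and 129.9, whereas the interferon lambda receptor Ifnlr1, used by epithelia, had 354, 474 and 372. Irf7, which amplifies interferon production, had 2468, 2199 and 2971. Interferon-stimulated genes took 0.237, 0.173 and 0.255% of scaled counts. Parp14 had 6095, 4909 and 5877, and Ifit1, which binds viral RNA ends, had 1246, 1046 and 1409.5. Isg15, a ubiquitin-like protein, had 327, 228 and 476 and Mx1, an antiviral GTPase, 98.2, 117 and 142 scaled counts. For Apol9a and Apol9b the values were 179, 143 and 203 and 175, 141 and 172, and 52.3% of the 50-mers of Apol9b also stood in Apol9a, so the division between this pair is uncertain. Of the 28 members with a mean of at least 100, library 2 was highest in 0 and lowest in 22 (0 and 23 under equal totals). Over all genes library 2 was lowest in 29.4% (57% under equal totals), so the second count stands closer to its background. Of the 28 members 2, Isg15 and Ifi27l2a, differed over 2-fold, with library 3 highest in both, where 1.71% of all genes did.

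Presentation of antigen was more even in its summed shares, though not in the order of libraries. B2m, the light chain of MHC class I, had 18405, 18692 and 17437 scaled counts and H2-D1, a heavy chain, 15764, 15963 and 16549.9. The class I list as a whole took 0.416, 0.378 and 0.427% of scaled counts. Library 2 was lowest in 8 of its 10 members, and in 10 of 10 under equal totals. Over all genes with a mean of at least 100, library 2 was lowest in 29.4 and 57%. The class II list took 0.342, 0.283 and 0.295%. Cd74, the invariant chain of MHC class II, had 21989, 20348 and 19165, and all 7 measured class II genes were highest in library 1 with the size factors and under equal totals alike, where library 1 was highest in 32.5 and 41.5% of all genes. Ciita, the master regulator of class II genes, had 635, 365 and 474. Of the 19 cytokine and chemokine genes, 7 had a mean of at least 100, 6 one between 10 and 100 and 6 one under 10. Ccl25, the chemokine that draws lymphocytes to the small intestine, had 3884, 4062 and 3502 and Ccl28, a mucosal chemokine, 623, 1231 and 1132. Tnf had 8.73, 20.4 and 25.5, Il22 0.728, 0 and 2.32 and Il6 0.728, 0 and 0 scaled counts, so that the last pair lay at or under the floor in every library.

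**Figure D4:**
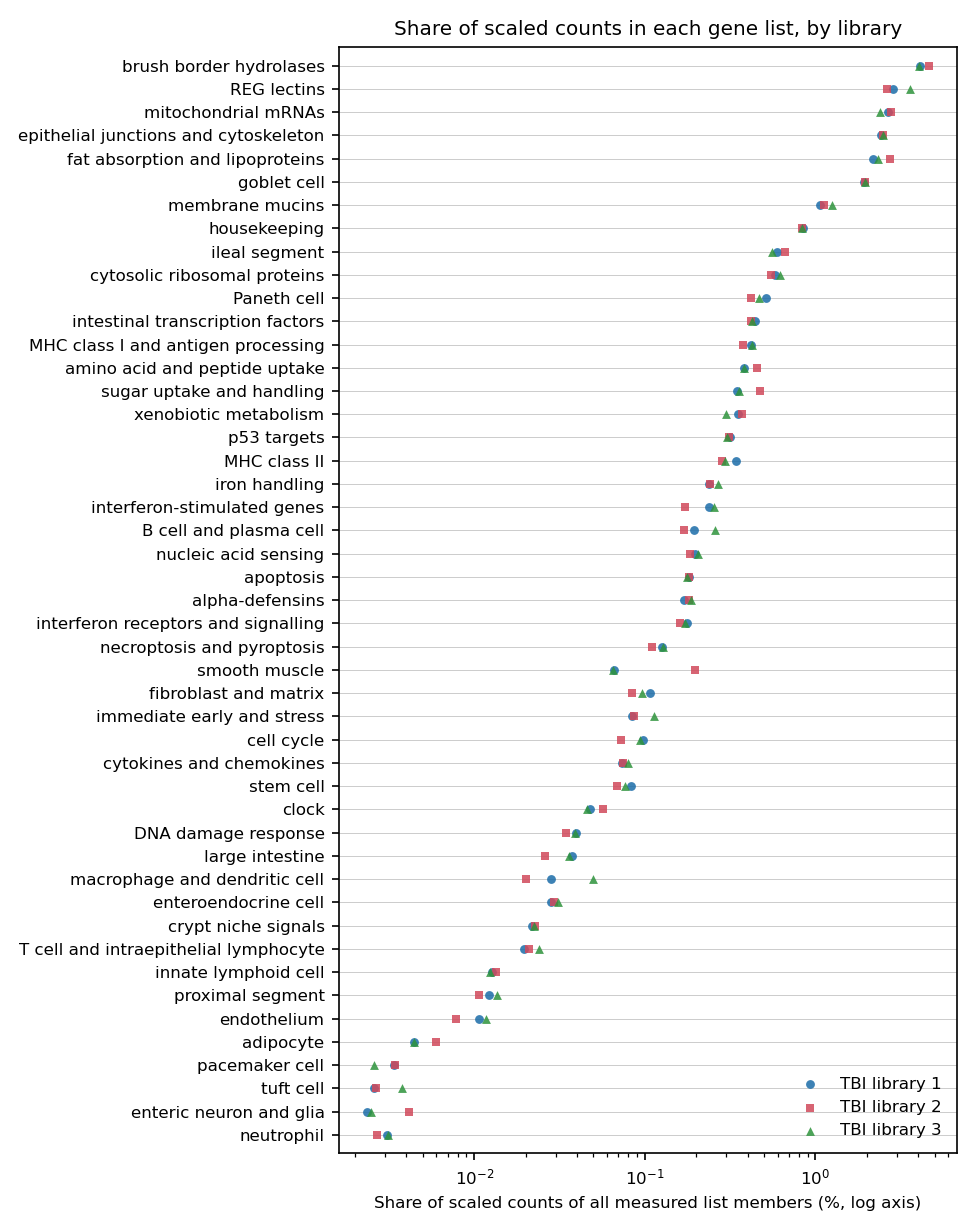
Share of scaled counts (horizontal axis, %, log scale) summed over the measured members of each gene list with a mean share of at least 0.002%, with 1 symbol per TBI library. Most lists have overlapping symbols, whereas smooth muscle lies at 0.197% in library 2 against 0.0659 and 0.0654% in libraries 1 and 3. The macrophage list is highest in library 3 with 0.0494%, of which the single gene Lyz2 gives 0.0265%.

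Stromal and immune cells contributed smaller shares. Fibroblast and matrix genes took 0.107, 0.0838 and 0.0956% of scaled counts, with Dcn, the proteoglycan decorin, at 1509.9, 1443 and 1498 scaled counts. Endothelial genes took 0.0106, 0.00786 and 0.0117%, with Plvap, a protein of capillary windows, at 241, 161 and 325 and Pecam1 at 143, 141 and 166. Of the niche signals around the crypt, the growth factor Ereg had 776, 699.6 and 696, the BMP antagonist Grem1 349, 803 and 451 and the Paneth cell Wnt ligand Wnt3 66.9, 52.6 and 44.1. Of the 8 niche genes with a mean of at least 100, 1, Grem1, was over 2-fold apart, where 1.71% of all genes with such a mean were. It was highest in library 2, as were 45.1% of all such genes (20% under equal totals). Of the intraepithelial lymphocyte genes, Gzma, a granule protease, had 521, 784 and 566, and Itgae, the integrin that holds these cells in the epithelium, had 201, 207 and 201. The macrophage complement gene C1qa had 374, 333 and 537 and the growth factor receptor Csf1r 272, 200.4 and 262. Neutrophil genes were low apart from Ltf, lactoferrin, with 292, 233 and 226, and had 4.37, 22.1 and 13.9 for S100a8 and 11.6, 8.49 and 12.8 for Ly6g, and so were mast cell genes, with 15.3, 6.79 and 4.64 for the mucosal protease Mcpt1. Haemoglobin, a sign of blood in the section, was low as well, with 18.9, 20.4 and 19.7 for Hba-a1, which has a near-identical copy.

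The 3 libraries agreed for most genes. Across the 9140 genes with a mean of at least 100, the median ratio of the highest to the lowest library was 1.16, computed as all such ratios here on scaled count + 1. The median coefficient of variation was 7.72%, where counting error alone gave a median of 5.15%. Over 2-fold apart were 156 genes, 1.71% of the 9140, of which 24 were over 5-fold and 7 over 10-fold apart. Of the 2359 genes with a mean of at least 1000, 23 were over 2-fold apart and 81.4% had a ratio under 1.25. Library 2 was highest in 80 of the 156 genes (51.3%), library 3 in 59 (37.8%) and library 1 in 17 (10.9%). Over all 9140 genes library 2 was highest in 45.1%, library 3 in 22.4% and library 1 in 32.5%. Equal library totals in place of the size factors moved libraries by up to 0.15 on the log2 scale relative to each other. Library 2 was then highest in 60 of 168 genes (35.7%) and library 3 in 88 (52.4%), against 20 and 38.5% of all genes. With the size factors, the count of genes over 2-fold apart was 59 without library 2 and 84 without library 3.

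Smooth muscle set library 2 apart. All 13 smooth muscle genes were highest there and over 2-fold apart, where 1.71% of genes were, and the group took 0.0659, 0.197 and 0.0654% of scaled counts. Myh11, the smooth muscle myosin heavy chain, had 928, 4551 and 767 scaled counts, and Actg2, enteric actin, 145, 1080.0 and 155. Des, the intermediate filament desmin, had 146, 1654 and 261, and Synm, which joins desmin filaments, 46.6, 789.6 and 61.5. In each of these genes libraries 1 and 3 lay far below library 2. They lay nearer to each other, least so in Des. Mylk, myosin light chain kinase, had 2688, 5634 and 2439 scaled counts, and its share per kb of 0.00781 ± 0.0034% lay below that of Acta2, smooth muscle actin, with 0.0145 ± 0.0077%. For other cells of the outer wall the order was less uniform. The 2 pacemaker cell genes together took 0.00336, 0.00345 and 0.00258% of scaled counts, nearly the same in libraries 1 and 2. Of these 2 genes, 1 was over 2-fold apart and highest in library 2, where 1.71% of all genes were over 2-fold apart. The other was highest in library 1. Upk3b, a gene of the mesothelium that covers the gut, had 93.4 scaled counts in library 2 and no read in libraries 1 and 3, and Msln, mesothelin, 0.728, 49.2 and 10.4. The enteric neuron and glia group had a share of 0.00236, 0.00412 and 0.00247%, with Nos1, the synthase of nitric oxide in inhibitory neurons, at 5.09, 49.2 and 4.64. Its 1 member with a mean of at least 100 was highest in library 2 with the size factors, but in library 3 under equal totals. Collagen did not follow this order, with 1308, 898 and 1181 for Col1a1 and 2499.5, 1910.3 and 1829 for Col3a1. Of the 8 adipocyte genes, Adipoq, Plin1, Cfd, Lep and Retn had no read in any library. The other 3, which other cells express as well, were Cidec, a lipid droplet protein highest in library 2 with 368, 596 and 370.1, Fabp4 with 56.8, 78.1 and 63.8 and Pparg with 104, 90 and 78.9.

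Some further genes with library 2 highest or lowest are given here, picked after their values were seen, so that their shared order is no result. Pck1, the first committed enzyme of gluconeogenesis, had 704, 2159.9 and 421 scaled counts, and G6pc, the last enzyme of that path, 221, 681 and 295. Fkbp5, Tsc22d3, which encodes GILZ, and Sgk1 are known to be induced by glucocorticoids, and had 1786, 3669 and 2205, 1093, 2328 and 1259 and 4452, 8623 and 3683. The clock genes Per1 and Nr1d1 had 201, 465 and 237 and 55.3, 143 and 67.3, and Arntl, which encodes the opposing factor BMAL1, 294, 188 and 309.7. On the clock list 6 of the 9 genes with a mean of at least 100 were highest in library 2 with either scaling. On the list of immediate early and stress genes it was 5 of 13, and 0 of 13 under equal totals, against 45.1 and 20% of all genes. In the opposite direction, the heat shock genes Hspa1a and Hspa1b had 314, 54.3 and 384 and 902, 272 and 1173 scaled counts, lowest in library 2. The labels give no time of day, feeding state or order of dissection, and the part of any of these was not tested.

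Of the 7 B cell and plasma cell genes with a mean of at least 100, 2 were over 2-fold apart, against 1.71% of all genes. Highest in library 3 were 6 of the 7, where 22.4% of all genes were. Under equal totals library 3 was highest in all 7, against 38.5% of all genes. The exception, Sdc1 of plasma cells and epithelium, had 2757, 2725 and 2729 scaled counts. The genes that follow were in part picked after their values were seen. Ighm, the heavy chain of IgM, had 42.9, 47.5 and 592 scaled counts, and Ms4a1, which encodes CD20, 6.55, 0 and 125. Cr2, the complement receptor of B cells and follicular dendritic cells, had 6.55, 1.70 and 107, and Pax5, the B cell transcription factor, 2.18, 0 and 48.7. Cxcl13, the chemokine that gathers B cells into follicles, had 73.5, 49.2 and 871. Follicular dendritic cells are also known to express Clu and Mfge8, which had 218, 173 and 2397 and 302, 217 and 1899 scaled counts. In these genes libraries 1 and 2 lay below library 3. Lyz2, the lysozyme of macrophages, had 1009, 695 and 3081 and followed the same order. Class-switched transcripts included Ighg2b, with 77.9, 71.3 and 1457, and Ighg1, with 93.9, 5.09 and 208. The IgA chain Igha, product of plasma cells of the lamina propria, differed far less, with 9051, 8163 and 10651, and so did the light chain Igkc, with 6558, 6219.9 and 9825. The variable segments Igkv19-93 and Igkv1-110 of the light chain were highest in library 1, with 224, 93.4 and 46.4 and 437, 105 and 325. T cell genes had a narrower range, with 66.2, 59.4 and 87.0 for Cd3e and 156, 190.2 and 205 for Cd8a. Whether a lymphoid follicle lay in the section of library 3, or muscle and serosa in that of library 2, was not tested.

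**Figure D5:**
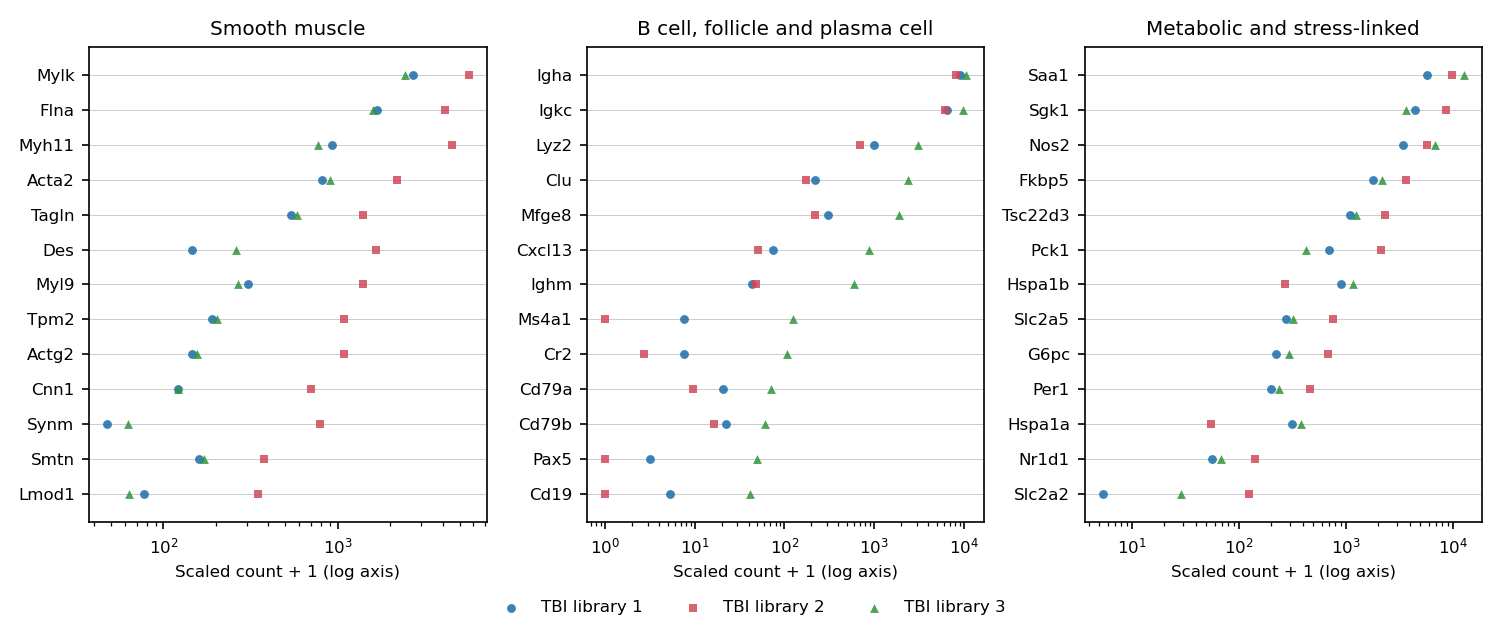
Scaled count + 1 (horizontal axes, log scale) by TBI library for all 13 smooth muscle genes, for B cell, follicle and plasma cell genes, and for metabolic and stress-linked genes, the middle and right sets picked after their values were seen. Library 2 is the highest in every smooth muscle gene, whereas the order of libraries in the middle panel follows from how its genes were picked.

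Some of the abundant genes over 2-fold apart, named because of that spread, were highest in library 3 and lowest in library 1. Saa1, an acute phase protein that epithelium makes in contact with microbes, had 5730.4, 9771 and 12737 scaled counts. Nos2, the inducible nitric oxide synthase, had 3403, 5748 and 6875, and Slc6a14, an amino acid carrier, 6612, 10881 and 13312. The immediate early genes Jun and Zfp36 had the same order, with 1192, 1386 and 1775 and 1472, 1914 and 2043. On the list of immediate early and stress genes library 3 was highest in 8 of 13, against 22.4% of all genes. Under equal totals it was highest in 13 of 13, against 38.5%. Library 1 was lowest in 11 of 13 (26.2% of all genes), and in 9 of 13 under equal totals (19.3%). Ces2a, a carboxylesterase that handles drugs and lipids, ran the other way with 5049, 3294 and 2085. So did Cyp3a11, a cytochrome P450 of drug metabolism, with 544, 304 and 149.7, while the drug exporter Abcb1a had 22981, 26021 and 17698. By contrast, the gene 2010109I03Rik, with 4615, 9815 and 6513, was highest in library 2.

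Some genes that every cell uses had few or no reads, and the part of their sequence that also stands in other genes is given beside them. In the mitochondrial genome, mt-Co1, a subunit of cytochrome oxidase, had 132070.0, 148486 and 122958 scaled counts and mt-Cytb, cytochrome b, 62751, 70753 and 55636. The neighbouring genes mt-Co2, mt-Atp6 and mt-Co3 had at most 3.64 scaled counts in any library. Every 50-mer of mt-Co2, and 99.5% and 99.9% of those of mt-Atp6 and mt-Co3, also stood in a transcript of another gene, mainly the pseudogenes Gm28661, Gm10925 and Gm28437, which lie side by side on chromosome 1 between positions 24613189 and 24615565 of GRCm38. For mt-Cytb and mt-Nd1 the shared part was 0%, and for mt-Co1 51.1%. Sharing and level did not always go together, since mt-Nd4 had 22978, 26637 and 21170.5 scaled counts with 62.2% shared. Gm28661 and Gm28437 themselves had at most 3.40 scaled counts. The mitochondrial share of 3.06% given above is thus the share of the genes that were counted. Likewise the glycolytic gene Gapdh had 204, 226 and 210.0 scaled counts, with 25.1% of its 50-mers in other genes, and Ppia, cyclophilin A, 87.3, 109 and 90.5. Per kb the share was 0.00128 ± 2.4e-05% for Gapdh and 0.498 ± 0.016% for Actb. The 82 cytosolic ribosomal protein genes together took 0.577, 0.551 and 0.622% of scaled counts. Rpl4 had 7625, 7509 and 7691 scaled counts. Per kb the highest share was that of Rplp1, 0.188 ± 0.0080%, against 0.0946 ± 0.0060% for Rpl4. In 6 of them over 50% of the 50-mers stood in other genes, with a median share per kb of 0.00555%, against 0.00465% in the other 76. Of the 100 most abundant genes of the profile 4 had over 50% shared, and the median was 0.12%. The part of this sharing in any level was not tested.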

How the data were processed

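RNA of the small intestine of 3 irradiated BALB/c mice was analysed, as sequenced by the authors. Poly(A) libraries (TruSeq RNA Sample Prep Kit v2) were run on a HiSeq2500, aligned with STAR in a 2-pass mode and counted with HTSeq, and the deposited signal is the count of each gene after DESeq scaling with 1 added by the authors. According to the submitters' processing notes the genome was mm9, and for HTSeq and DESeq the authors gave no version there. For the strand setting nothing was given in the sources used here. The paper names known junctions from Ensembl for the mapping, but not which gene model database served for counting. Tables of comparisons between groups, which hold the authors' log2 ratios and p-values, were not used.

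From each value 1 was subtracted, and reads, shares, ranks and the ratio of the highest to the lowest library of scaled count + 1 were computed in Python 3 (pandas, numpy), with a minimum mean of 100 for ratios over 2-fold. Exon lengths for 99.5% of genes, names and the sharing of 50-mers came from GENCODE M21 (GRCm38), another build than that of the files. For 12 genes whose symbol had turned into a date, the reference symbol was restored. Gene lists held 790 entries in 54 lists, of which 746 matched. The steps were tested on simulated data. No test between groups was run, since all 3 libraries belong to 1 group.

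Genes named were the 30 with the largest mean share, the 10 with the largest share per kb, the leading and absent members of each list, genes the study names, and the 10 most variable and 10 most abundant genes over 2-fold apart, apart from those said to be picked after their values were seen. Some genes that this rule names are not reported here. The members and lists were chosen with earlier results of these data known. Alternatives were shares per kb, other filters and pseudocounts, equal totals, thinned reads, and omission of mitochondrial genes or of single libraries.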

Additional observations from a re-analysis of the deposited data

How the results depend on the processing

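No paired analysis was possible because all libraries described belong to 1 group and no test was run. Per kb of exon length, the 10 most abundant genes held 18.3% in place of 10.5%, and 202 genes in place of 536 (ranked by mean share) held 50%. Leaving out 1 TBI library at a time gave 10.004 to 10.772%, 521 to 563 genes, 16959 to 17466 genes detected in each library left and 59 to 120 genes over 2-fold apart, in place of 156. The last count was 59 without library 2, 84 without library 3 and 120 without library 1, with fewer libraries to differ. It moved most with the filter on the mean, to 471 at 30, 4713 with none and 23 at 1000, while pseudocount 0 gave 156 and equal totals 168. Detection in every library went from 16712 genes to 16186 after thinning to the shallowest library and to 12810 at 10 reads. Of the shares of the 54 lists, 44 moved by more than the SD over libraries per kb, and 7 of 53 without mitochondrial genes. Shares rest on genes that were counted, and near-identical copies, unknown gene models and the mixed wall layers of each section limit them.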
